A study of Mus musculus with 12 samples.

Results

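Neutrophils kill microbes with proteins that they store in granules, and each kind of granule is filled at its own stage of maturation in the bone marrow. Primary (azurophil) granules are filled first, in promyelocytes, with myeloperoxidase and serine proteases. Specific granules follow, in myelocytes and metamyelocytes, and the calcium-binding proteins S100A8 and S100A9 accumulate in the cytosol of the maturing cells. The transcripts of these proteins are abundant in developing neutrophils, although Lcn2, S100a8 and S100a9 are also made by other cells in inflammation.

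The 10 granule genes were taken by name from the 17362 genes of the deposited table, and all 10 were present. They comprised 4 primary granule genes (Elane, Mpo, Prtn3 and Ctsg), 4 specific granule genes (Lcn2, Ngp, Camp and Ltf) and the pair S100a8 and S100a9. All 10 passed the filter on low values, which kept 17086 genes with at least 10 reads, at the mean library size, in at least 3 libraries. Each gene had reads in all 12 libraries.

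The cells came from marrow of crushed tibia, femur and iliac bones of B6 mice that had received no treatment, and 4 populations were sorted for RNA sequencing. The CD200-high capillaries were sorted as CD200-high, Sca1+, CD31+, EMCN- and CD45-, the type H vessels as EMCN+, Sca1+, CD31+ and CD45-, the arterial cells by Sca1+, CD31+, CD200- and CD45-, and the sinusoidal cells as CD31+, Sca1+ and CD45-. Each population had 3 libraries. The labels give 6 mice in all and number the libraries of each population by mouse from 1 to 3, so whether a library held cells of 1 mouse or of a pool was not given. All 4 sorts required the absence of CD45, the protein of Ptprc, which white blood cells carry on their surface.

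The libraries held 7.33 to 21.6 M reads (M, 1e6) assigned to the listed genes, and levels are given as log2 CPM (counts per 1e6 reads). The sinusoidal label went against the endothelial markers. Cdh5, which encodes VE-cadherin, had 1492 to 3113 reads per CD200-high library, 4713 to 7310 per type H library, 1547 to 2840 per arterial library and 8 to 24 per library labelled sinusoidal. The 16 pan-endothelial genes of a marker list together took 0.473% ± 0.160 of the reads in CD200-high libraries, 1.07% ± 0.0324 in type H libraries, 0.223% ± 0.0380 in arterial libraries and 0.0287% ± 0.000865 in the libraries labelled sinusoidal (SD, n = 3 each). The last group is therefore called by its label throughout.

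The granule genes were found in every population and, as a share of all reads, were most abundant in the arterial libraries. Together they took 0.766% ± 0.224 of the reads in CD200-high libraries, 0.573% ± 0.160 in type H libraries, 2.61% ± 0.566 in arterial libraries and 0.839% ± 0.249 in the libraries labelled sinusoidal (SD, n = 3 each). The lowest arterial library held 2.14%, and the highest library of any other population was a library labelled sinusoidal with 1.12%. In bulk RNA of sorted cells, fewer cells of a type and less RNA per cell cannot be told apart.

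Between genes, levels were compared as CPM per kilobase of exon, with exon lengths from GENCODE M21. The order of the 4 most abundant was the same in all 4 populations: S100a9, S100a8, Ngp and Camp. S100a9 had 4713 ± 1499 CPM per kilobase in CD200-high libraries, 3332 ± 987 in type H, 12522 ± 3331 in arterial and 3853 ± 1211 in sinusoidal-labelled libraries (SD, n = 3 each). S100a8 had 2754 ± 947 in CD200-high libraries, 1893 ± 589 in type H, 7380 ± 2295 in arterial and 2271 ± 725 in sinusoidal-labelled libraries. Among the primary granule genes, Elane was the most abundant per kilobase, at 137 ± 95.0 in CD200-high libraries, 133 ± 80.8 in type H, 530 ± 183 in arterial and 196 ± 60.0 in sinusoidal-labelled libraries. Prtn3 and Ctsg were the 2 lowest in every population, with arterial means of 112 ± 60.7 for Prtn3 and 85.6 ± 36.2 for Ctsg, which did not differ beyond their spread.

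**Figure D1:**
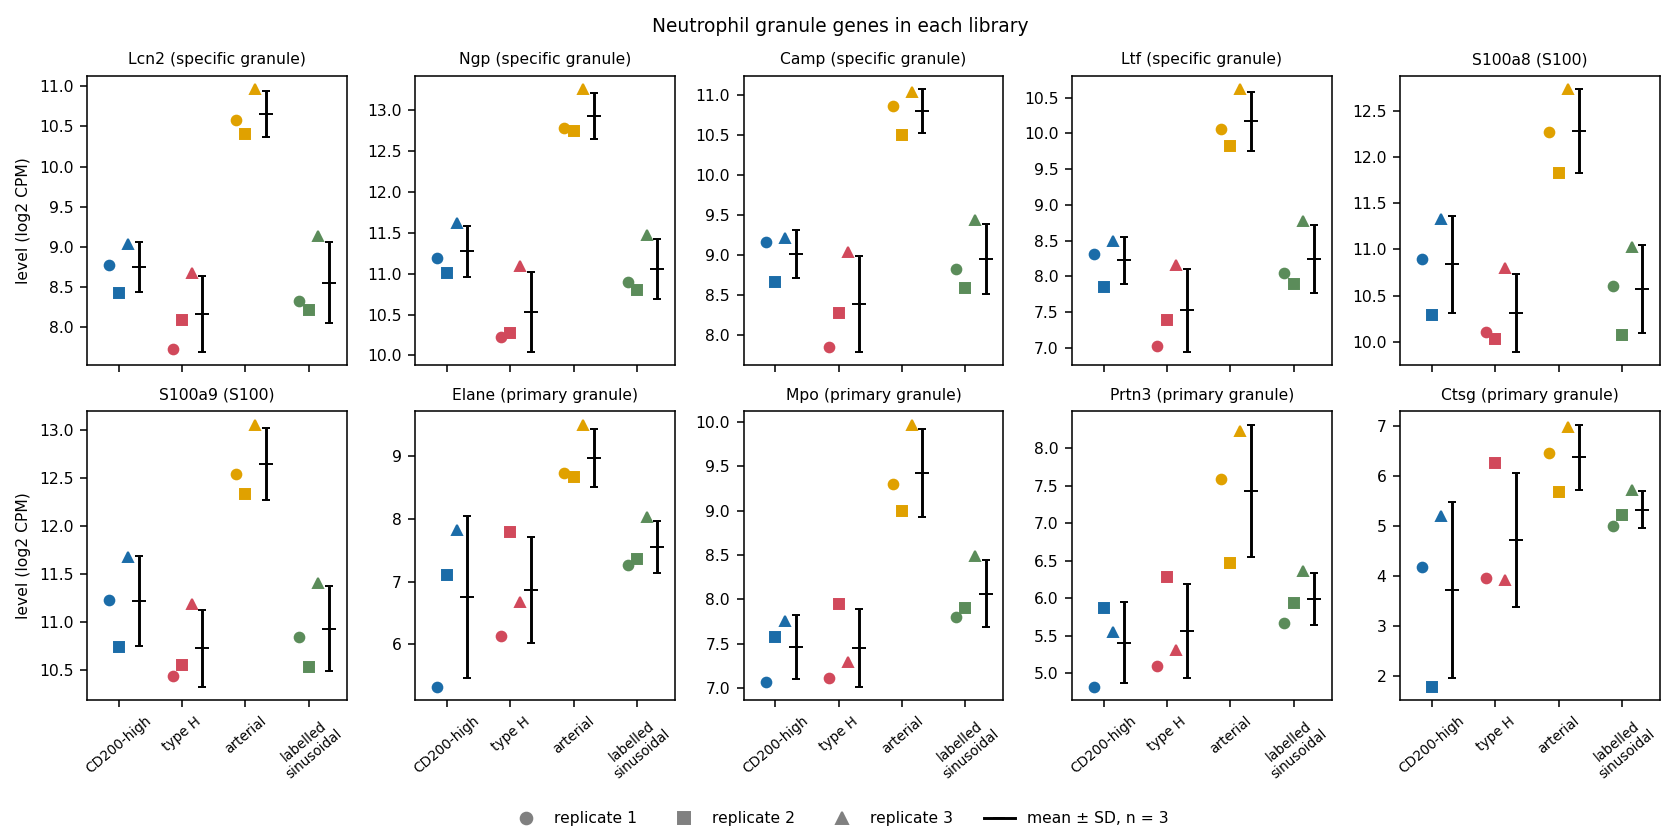
Level of each granule gene in each library (y axis, log2 CPM, a separate range per panel) in the 4 sorted populations (x axis); symbols mark replicates 1 to 3 and black bars give the mean ± SD of 3 libraries. The 3 arterial libraries lie above all other libraries for every gene except Ctsg, where type H replicate 2 (6.26) and replicate 3 labelled sinusoidal (5.73) exceed arterial replicate 2 (5.69).

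Specific granule genes were higher in the arterial libraries than in any other library on the deposited scale. Ngp encodes neutrophilic granule protein, a cystatin-related protein of mouse neutrophils. Its levels were 11.19, 11.004 and 11.62 log2 CPM in CD200-high replicates 1 to 3, 10.22, 10.28 and 11.09 in type H, 12.78, 12.75 and 13.26 in arterial, and 10.90, 10.81 and 11.48 in sinusoidal-labelled libraries. The arterial values stood above the other 9 libraries, and the other 3 populations overlapped one another.

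Lcn2 encodes lipocalin-2, which binds bacterial siderophores and so withholds iron. It measured 8.78, 8.42 and 9.04 log2 CPM in CD200-high replicates 1 to 3, 7.73, 8.09 and 8.67 in type H, 10.59, 10.40 and 10.96 in arterial, and 8.33, 8.21 and 9.13 in sinusoidal-labelled libraries. Ltf encodes lactoferrin, an iron-binding protein. Its levels were 8.32, 7.86 and 8.50 in CD200-high libraries, 7.02, 7.39 and 8.16 in type H, 10.06, 9.82 and 10.62 in arterial, and 8.04, 7.90 and 8.78 in sinusoidal-labelled libraries. Camp encodes cathelicidin, the precursor of an antimicrobial peptide. Its levels were 9.16, 8.67 and 9.21 in CD200-high libraries, 7.86, 8.28 and 9.04 in type H, 10.86, 10.51 and 11.04 in arterial, and 8.83, 8.59 and 9.44 in sinusoidal-labelled libraries. For each of these 3 genes the arterial group was set apart and the remaining groups overlapped.

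S100a8 and S100a9 encode the subunits of calprotectin, which sequesters metal ions from microbes. S100a8 had 10.90, 10.29 and 11.33 log2 CPM in CD200-high replicates 1 to 3, 10.11, 10.04 and 10.80 in type H, 12.27, 11.82 and 12.73 in arterial, and 10.61, 10.08 and 11.03 in sinusoidal-labelled libraries. S100a9 had 11.23, 10.74 and 11.68 in CD200-high libraries, 10.44, 10.55 and 11.19 in type H, 12.54, 12.33 and 13.05 in arterial, and 10.85, 10.53 and 11.40 in sinusoidal-labelled libraries. Both followed the order of the specific granule genes, with the arterial group alone set apart.

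Within CD200-high, type H and arterial libraries, the levels of Elane, Prtn3 and Ctsg had a larger SD than any specific granule or S100 gene. Mpo did so only in arterial libraries, and no primary granule gene did in those labelled sinusoidal. Elane encodes neutrophil elastase. It had 5.31, 7.11 and 7.82 log2 CPM in CD200-high replicates 1 to 3, 6.13, 7.79 and 6.68 in type H, 8.74, 8.67 and 9.51 in arterial, and 7.27, 7.36 and 8.03 in sinusoidal-labelled libraries. CD200-high replicate 1 was the lowest library, with 429 Elane reads. Mpo encodes myeloperoxidase, which makes hypochlorous acid. It measured 7.06, 7.58 and 7.76 in CD200-high libraries, 7.11, 7.95 and 7.29 in type H, 9.30, 9.001 and 9.97 in arterial, and 7.80, 7.90 and 8.49 in sinusoidal-labelled libraries. The 3 CD200-high values of Mpo lay below the 3 values of the libraries labelled sinusoidal, a separation that 25.1% of all genes showed and no other granule gene did.

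Prtn3 encodes proteinase 3, a serine protease like elastase. Its levels were 4.81, 5.87 and 5.55 log2 CPM in CD200-high replicates 1 to 3, 5.10, 6.28 and 5.31 in type H, 7.59, 6.48 and 8.23 in arterial, and 5.67, 5.93 and 6.36 in sinusoidal-labelled libraries. The lowest arterial library of Prtn3 lay just above the highest library of another population, replicate 3 labelled sinusoidal. Ctsg encodes cathepsin G, a further serine protease. It had 4.19, 1.78 and 5.20 in CD200-high libraries, 3.97, 6.26 and 3.93 in type H, 6.45, 5.69 and 6.98 in arterial, and 5.01, 5.23 and 5.73 in sinusoidal-labelled libraries. Ctsg was the shallowest of the 10 genes, with 49 reads in CD200-high replicate 2 and 1473 in arterial replicate 1, and for this gene alone arterial values overlapped those of type H and of the libraries labelled sinusoidal.

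Populations were compared with limma over all 12 libraries, as differences of mean log2 CPM with standard errors and Benjamini-Hochberg adjusted p over the 17086 genes. A gene was called at an adjusted p under 0.05. Between CD200-high and arterial libraries, 9 of the 10 granule genes were called, all lower in CD200-high; over all genes 8.15% were called lower. The values of all 10 genes lay lower in CD200-high without overlap, against 19.0% of all genes. The median difference of the 10 genes was -1.92, beside -0.22 over all genes.

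Ngp averaged 11.27 ± 0.32 log2 CPM in CD200-high and 12.93 ± 0.28 in arterial libraries (SD, n = 3 each), a difference of -1.66 ± 0.26 (SE) with a limma adjusted p of 0.00189. Lcn2 differed by -1.90 ± 0.29 (limma adjusted p = 0.00154), the smallest adjusted p of the 10 genes. Mpo differed by -1.96 ± 0.30 (limma adjusted p = 0.00182). S100a9 showed the difference closest to 0 of the 10 genes, -1.43 ± 0.29 (limma adjusted p = 0.0087). Ctsg showed the one farthest from 0, -2.65 ± 0.82, but with an adjusted p of 0.056 it was not called.

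Single libraries or settings decided some of these calls. Elane, which differed by -2.23 ± 0.58 (limma adjusted p = 0.0266), lost its call without CD200-high replicate 1 (0.0639), arterial replicate 1 (0.0619), arterial replicate 2 (0.0536) or arterial replicate 3 (0.0976). Prtn3, at -2.02 ± 0.46 (limma adjusted p = 0.0137), lost it without arterial replicate 1 (0.0526) or 3 (0.0596). S100a8, at -1.44 ± 0.32 (limma adjusted p = 0.0139), lost it without arterial replicate 3 (0.0611). Without the mean-variance trend neither Elane (limma adjusted p = 0.0646) nor S100a8 (0.0544) was called, and Elane was not called with only the 6 libraries of both populations (0.0529). Ctsg gained a call without CD200-high replicate 3 (0.0212) or type H replicate 2 (0.0316), on the scale of log2(CPM + 1) (0.0358), on the total of listed reads (0.0424) and on equal pan-endothelial medians (0.00391).

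Between type H and arterial libraries, 9 of the 10 granule genes were called lower in type H, against 12.7% of all genes. The values of 9 genes did not overlap, against 22.9% of all genes, and the exception in both counts was Ctsg (-1.65 ± 0.82, limma adjusted p = 0.183). The median difference was -2.04, beside -0.20 over all genes. Ltf differed most, with 7.53 ± 0.58 log2 CPM in type H and 10.17 ± 0.41 in arterial libraries (SD, n = 3 each), a difference of -2.64 ± 0.32 and a limma adjusted p of 0.000219. The other 3 specific granule genes lay between -2.40 and -2.49, and the S100 pair at -1.96 and -1.92. Mpo differed by -1.97 ± 0.30 (limma adjusted p = 0.000903) and Prtn3 by -1.87 ± 0.46 (limma adjusted p = 0.0132).

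Elane (-2.11 ± 0.58, limma adjusted p = 0.0228) was no longer called without type H replicate 1 (0.0841) or 3 (0.0641), or without arterial replicate 1 (0.05) or 3 (0.0872). Without the mean-variance trend Elane was not called either (0.0539). Prtn3 was not called without arterial replicate 3 (0.0577). The direction of all 10 genes in these 2 comparisons with arterial libraries was the same under every scaling tried. The scalings could not turn it, since each lowers the difference of every gene in these comparisons by the same amount. On equal pan-endothelial medians that amount is -1.23 for CD200-high and -2.10 for type H against arterial.

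Between arterial libraries and those labelled sinusoidal, 7 of the 10 genes were called, all higher in arterial, against 8.09% of all genes called higher; this direction held on the deposited scale and on the total of listed reads, and turned for all 10 genes when libraries were set to the same median of pan-endothelial genes. The values of 9 genes did not overlap, against 21.7% of all genes. The median difference was 1.71, beside -0.02 over all genes. Lcn2 averaged 10.65 ± 0.29 log2 CPM in arterial libraries and 8.55 ± 0.50 in those labelled sinusoidal (SD, n = 3 each), a difference of 2.10 ± 0.29 with a limma adjusted p of 0.000668. All 6 specific granule and S100 genes were called, with differences of 1.704 to 2.10. Of the primary granule genes only Mpo was called (1.36 ± 0.30, limma adjusted p = 0.0143), and it lost its call without arterial replicate 3 (0.0677) or without replicate 1 (0.0598) or 2 (0.0579) labelled sinusoidal. Elane measured 1.42 ± 0.58 (limma adjusted p = 0.162) and Ctsg 1.05 ± 0.82 (limma adjusted p = 0.503). Prtn3 measured 1.44 ± 0.46 (limma adjusted p = 0.0717) and was called without arterial replicate 2 (0.0227). With voom weights Elane (limma adjusted p = 0.0303) and Prtn3 (0.0467) were also called, Elane was called with only the 6 libraries of both populations (0.0137), and Mpo was not called without the mean-variance trend (0.0576).

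On the scale of equal pan-endothelial medians, the arterial libraries lay below those labelled sinusoidal for each granule gene, by -1.94 (Lcn2) to -2.99 (Ctsg) log2 units, and all 10 were called, as were 75.7% of all genes in that direction. That scale moves every gene in this comparison by the same -4.04 and the median of all genes to -4.06. Each gene therefore keeps its distance from the median gene by construction, and the granule genes lie above that median on both scales. Per 100 reads of the pan-endothelial list there were 167 ± 41.4 granule gene reads in CD200-high libraries, 53.4 ± 13.6 in type H, 1210 ± 389 in arterial and 2909 ± 770 in sinusoidal-labelled libraries (SD, n = 3 each). The highest granule share of total reads was thus in arterial libraries, and the highest amount per endothelial marker read in those labelled sinusoidal.

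**Figure D2:**
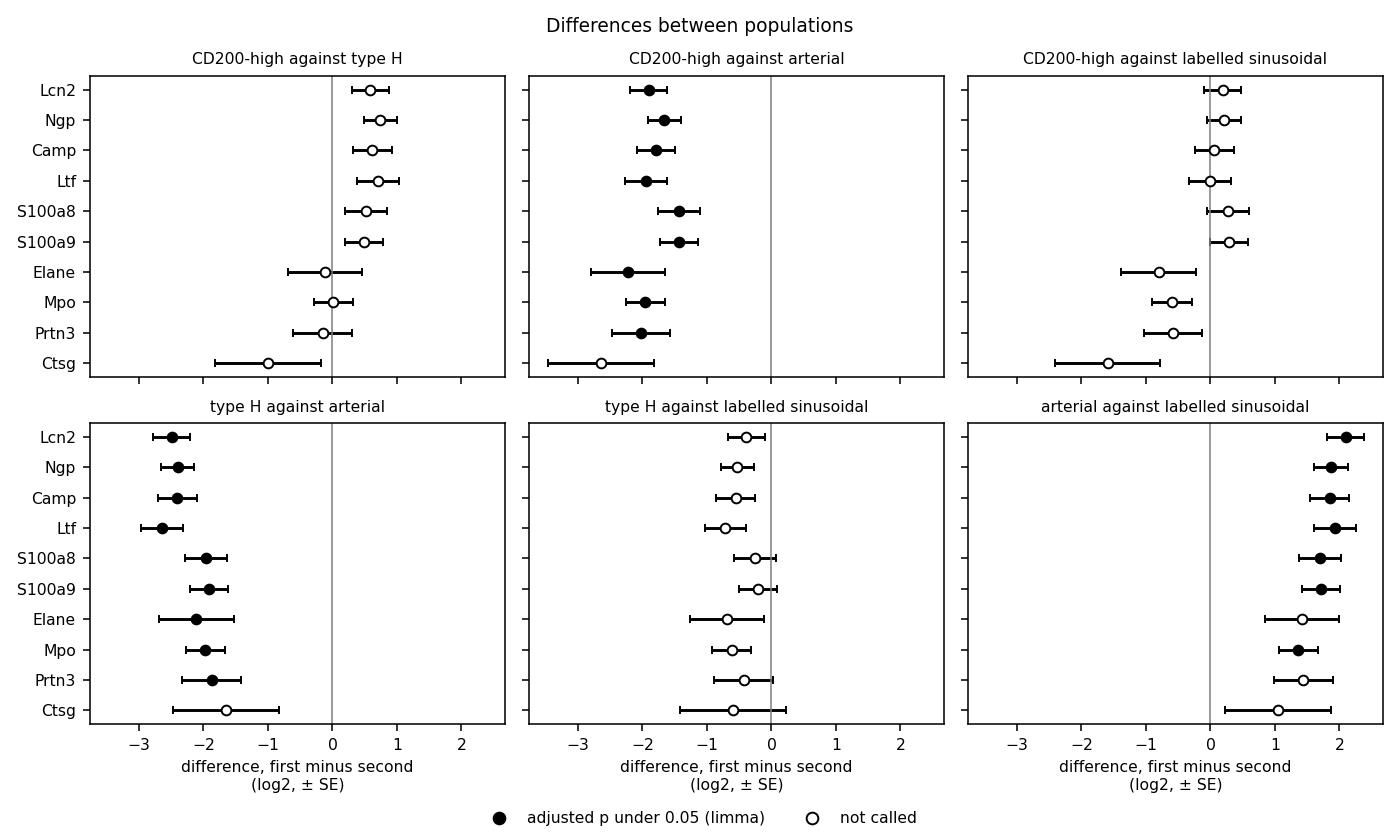
Difference of each granule gene between populations (x axis, log2, first named minus second, ± SE from limma; filled points have an adjusted p under 0.05). The filled points lie in the 3 comparisons with arterial libraries, with 9, 9 and 7 genes; the direction against the libraries labelled sinusoidal turns when libraries are set to equal pan-endothelial medians.

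The other 3 populations differed less. Between CD200-high and type H libraries none of the 10 genes was called by limma, against 6.66% of all genes called higher and 6.35% lower in CD200-high, and 1 of them, Ngp, had an unadjusted p under 0.05. The 6 specific granule and S100 genes lay 0.49 to 0.74 log2 units above type H, whereas Elane measured -0.12 ± 0.58, Mpo 0.02 ± 0.30, Prtn3 -0.15 ± 0.46 and Ctsg -0.99 ± 0.82. With the mouse number as a block, 5 were called higher in CD200-high, against 6.40% of all genes: Ngp (limma adjusted p = 0.000688), S100a8 (0.00791), S100a9 (0.0132), Ltf (0.0259) and Lcn2 (0.035). Ngp averaged 11.27 ± 0.32 log2 CPM in CD200-high and 10.53 ± 0.49 in type H libraries (SD, n = 3 each), a difference of 0.74 ± 0.26 without the block. Ngp was also called without type H replicate 3 (limma adjusted p = 0.0197).

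Between CD200-high libraries and those labelled sinusoidal, again none was called, against 28.7% of all genes, and none had an unadjusted p under 0.05. The median difference was 0.02, beside -0.22 over all genes. The specific granule and S100 genes ranged from -0.01 to 0.29, and the 95% interval of Ngp reached from -0.35 to 0.78. The primary granule genes ranged from -0.58 (Prtn3) to -1.60 (Ctsg), with limma adjusted p of 0.165 or more. Mpo, at -0.60 ± 0.30, was called on the total of listed reads (-0.91, limma adjusted p = 0.0446).

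Between type H libraries and those labelled sinusoidal, none was called, against 28.6% of all genes, and 1 of them, Ltf, had an unadjusted p under 0.05. All 10 differences were below 0, from -0.20 (S100a9) to -0.71 (Ltf), with a median of -0.54 beside -0.20 over all genes. With the mouse number as a block, Ngp (-0.53, limma adjusted p = 0.00183) and Ltf (-0.71, limma adjusted p = 0.0118) were called lower in type H, against 14.4% of all genes. Without type H replicate 3, Ngp (limma adjusted p = 0.0279), Ltf (0.0329) and Camp (0.0348) were called lower.

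Within the set, the ratios of the specific granule and S100 genes to Ngp varied less across the 12 libraries than those of the primary granule genes. Ratios to Ngp do not show how the primary granule genes moved among themselves. The log2 ratio of a gene to Ngp had an SD over 12 libraries of 0.15 for Lcn2, 0.16 for Camp, 0.18 for Ltf, 0.21 for S100a9 and 0.24 for S100a8. For Mpo it was 0.50, for Prtn3 0.67, for Elane 0.79 and for Ctsg 1.22. Ctsg and Prtn3 have the fewest reads of the set, and per library Mpo had 1447 to 10585 reads and Ltf 2456 to 17984; the part of read depth in these spreads was not tested.

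Pearson correlations over the 12 libraries were 0.969 to 0.996 for the 15 pairs of specific granule and S100 genes (median 0.99), 0.69 to 0.97 for the 6 pairs of primary granule genes (median 0.82) and 0.53 to 0.89 for the 24 pairs between both classes (median 0.76). These values are descriptions, since the pairs share libraries and the high arterial group. After each population's mean was removed, the medians were 0.95 within the specific granule and S100 genes, 0.64 within the primary granule genes and 0.34 between the classes.

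Reads of the 4 primary granule genes per 100 reads of the 4 specific granule genes show the same split by library. They numbered 5.98, 12.9 and 11.4 in CD200-high replicates 1 to 3, 14.6, 31.2 and 9.22 in type H, 11.6, 10.002 and 14.0 in arterial, and 15.6, 18.5 and 16.7 in sinusoidal-labelled libraries. The extremes were type H replicate 2, with 11214 primary and 35902 specific reads, and CD200-high replicate 1, with 2377 and 39727. Outside type H, the 3 libraries labelled sinusoidal stood above all CD200-high and arterial libraries, while type H spanned the whole range of arterial and sinusoidal-labelled values. Reads of the S100 pair per 100 specific granule reads varied far less, from 82.9 to 141. They were 82.9 to 98.9 in arterial and 121 to 141 in type H libraries, without overlap.

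**Figure D3:**
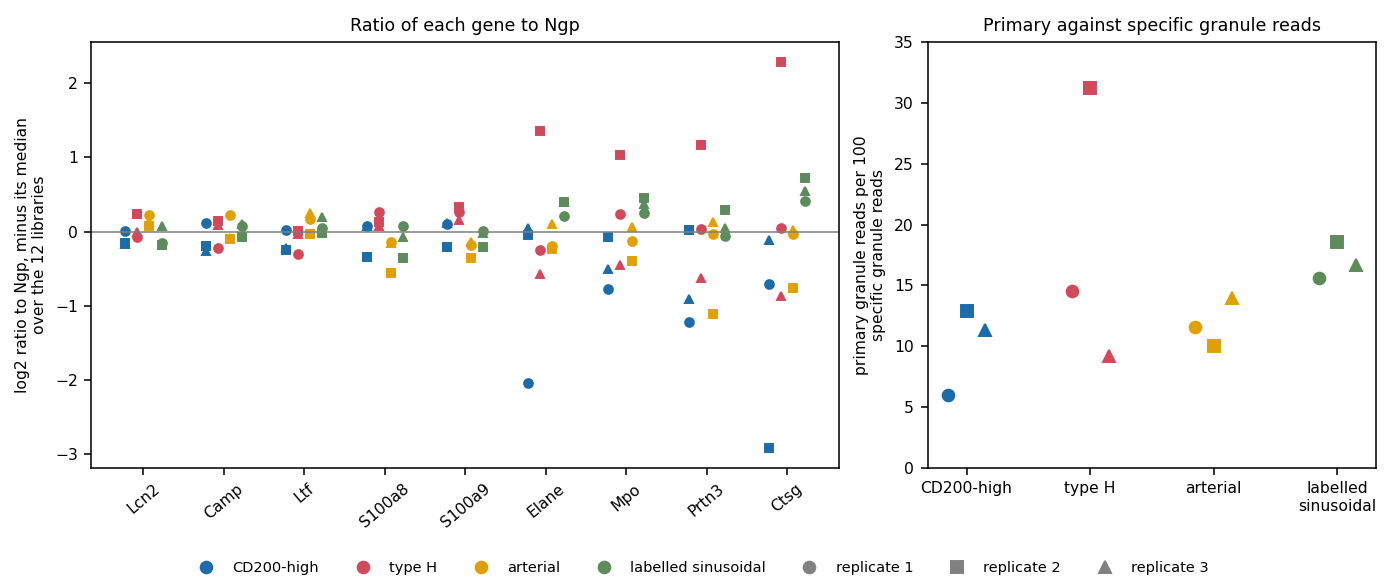
Left, log2 ratio of each gene to Ngp in the 12 libraries, minus its median over them (y axis); right, primary granule reads per 100 specific granule reads (y axis, from 0) by population; colours mark populations and symbols replicates. Ratios of the specific granule and S100 genes stay close to 0 (SD 0.15 to 0.24), whereas those of the primary granule genes spread (SD 0.50 to 1.22), with type H replicate 2 at 31.2 reads per 100 in the right panel.

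Libraries with the same number also shared a rank. Replicate 3 was the highest library of its population for each of the 6 specific granule and S100 genes in all 4 populations, 24 of 24 gene and population pairs. Over all genes tested replicate 3 was the highest in 36.3% of such pairs, and 2.31% of genes had it highest in all 4 populations. The 6 genes correlated at a median of 0.95 with each population's mean removed, so the 24 pairs are not independent observations. Of the 16 pairs of primary granule genes, replicate 3 was the highest in 11 and replicate 2 in 5. Type H replicate 2 was the highest type H library for all 4 primary granule genes. Replicate 3 had the fewest reads in 3 of the populations, CD200-high, type H and arterial, and whether depth plays a part was not tested.

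The promoters of the 2 classes were compared because ratios to Ngp varied more for the primary granule genes than for the others. The classes were not separate groups throughout. Correlations within the primary granule genes (0.69 to 0.97) overlapped those between the classes (0.53 to 0.89). Granule genes are known targets of C/EBP factors, which bind palindromes related to TTGCGCAA, and of PU.1, an ETS factor that binds purine-rich sites such as GAGGAA. RefSeq promoters of all 10 genes were matched by symbol (GRCm38.p6), and the 250 bases before the start of each gene were searched on both strands. The relaxed pattern TTNCNNAA, which is not itself a palindrome, occurred upstream of 5 of the 6 specific granule and S100 genes, all but Camp. It occurred upstream of 0 of the 4 primary granule genes, and in 36.9% of all 32851 promoters. GAGGAA occurred upstream of all 4 primary granule genes and of 3 of the 6 others (Lcn2, Ltf and S100a8), beside 23.3% of all promoters. Neither TTGCGCAA (0.164% of all promoters) nor TTGCNNCAA (1.74%) occurred in any of the 10, and no match of one motif overlapped a match of the other in them. These matches are descriptions of the letters only. In the 4 promoters below, 2 from each class, capitals mark TTNCNNAA or GAGGAA on either strand, and each sequence is given from 5′ to 3′ on the strand of its gene.
Ngp, chr9:110419558-110419807, plus strand: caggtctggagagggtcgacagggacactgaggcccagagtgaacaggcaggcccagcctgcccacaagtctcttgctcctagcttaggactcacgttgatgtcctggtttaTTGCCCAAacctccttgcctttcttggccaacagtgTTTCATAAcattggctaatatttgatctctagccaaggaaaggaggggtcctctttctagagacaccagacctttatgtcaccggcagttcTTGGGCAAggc
S100a8, chr3:90668821-90669070, plus strand: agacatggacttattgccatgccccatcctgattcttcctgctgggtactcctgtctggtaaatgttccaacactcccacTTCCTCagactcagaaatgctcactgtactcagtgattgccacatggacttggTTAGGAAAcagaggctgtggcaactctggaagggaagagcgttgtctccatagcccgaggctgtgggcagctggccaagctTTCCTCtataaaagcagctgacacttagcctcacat
Elane, chr10:79886062-79886311, plus strand: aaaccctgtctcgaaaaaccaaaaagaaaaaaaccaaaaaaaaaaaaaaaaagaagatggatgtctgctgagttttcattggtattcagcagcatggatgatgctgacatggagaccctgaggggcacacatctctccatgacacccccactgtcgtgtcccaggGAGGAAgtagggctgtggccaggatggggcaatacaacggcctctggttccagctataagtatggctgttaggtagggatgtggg
Mpo, chr11:87793534-87793783, plus strand: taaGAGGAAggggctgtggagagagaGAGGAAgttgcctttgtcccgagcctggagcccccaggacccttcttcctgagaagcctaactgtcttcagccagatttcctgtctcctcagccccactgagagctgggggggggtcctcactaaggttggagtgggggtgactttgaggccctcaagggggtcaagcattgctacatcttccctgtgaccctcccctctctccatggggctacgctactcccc
Ngp held 3 matches to TTNCNNAA, at 138, 102 and 11 bases before the start. S100a8 held 1 such match, at 117 bases, and 2 to GAGGAA, at 170 and 36 bases, both on the opposite strand (TTCCTC). Elane held 1 GAGGAA at 85 bases and Mpo 2, at 247 and 224 bases.

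In the GENCODE M21 annotation Mpo overlaps the antisense gene Gm11505 over 5361 bases, and the correlation of the 2 genes over the 12 libraries was 0.9996. Whether the counting used strand was not given, so reads of Mpo and Gm11505 cannot be told apart. Prtn3 overlaps Plppr3 on the opposite strand over 159 bases, and their levels correlated at -0.21.

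Genes outside the set with the pattern most like the mean of the 10 scaled granule genes were sought over the 12 libraries. Highest were Anxa1 (r = 0.98), which encodes annexin A1, Mmp8 (0.97), a collagenase of neutrophil granules, Tyrobp (0.97), an adaptor of myeloid receptors, Pglyrp1 (0.97), a peptidoglycan-binding granule protein, and Itgam (0.97), which encodes CD11b. Lyz2 (lysozyme), Slc16a3 (a lactate transporter), Cd177 (a neutrophil surface protein), Ces1d and Gm11505 completed the 10, with r of 0.96 to 0.97. Ces1d rested on 0 reads in every CD200-high and type H library and on 16 to 29 reads in the arterial ones. For 9 of the single genes, the closest were Pglyrp1 for Lcn2 and S100a9, the chitinase-like Chil3 for Ngp, Tyrobp for Camp and Ltf, Wfdc21 for S100a8, Mpeg1 for Elane, and Gm11505 for Mpo and Prtn3, with r from 0.963 to 0.9996. Since reads of Gm11505 cannot be told apart from those of Mpo, its likeness is not independent of the set.

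Most of the further granule genes were also called in the comparisons with arterial libraries. Of 24 further granule genes, 19 were called lower in the CD200-high than in the arterial libraries, against 8.15% of all genes. Only 1, Cd63, was called higher, against 811 of the 17086 genes. In type H 20 were called lower than in arterial, against 12.7% of all genes. In arterial 18 were called higher than in sinusoidal-labelled libraries, against 8.09% of all genes. Among the other populations, 5 were called higher and 2 lower in CD200-high than in type H, against 6.66% and 6.35% of all genes. Between CD200-high and sinusoidal-labelled libraries, 2 were called higher and 4 lower in CD200-high, against 28.7% of all genes in either direction. Between type H and sinusoidal-labelled libraries, 1 was called higher and 7 lower in type H, against 28.6% in either direction. Both of these counts lay near the share of all genes. In the 3 comparisons with arterial libraries the median differences were -2.06, -2.57 and 1.80, beside -0.22, -0.20 and -0.02 over all genes. Setting libraries to equal pan-endothelial medians moves each gene by -4.04 in the comparison of arterial libraries with those labelled sinusoidal, so the median of this list turns to -2.25, that of the late neutrophil genes to -2.14 and that of the erythroid genes to -2.22. Chil3 averaged 7.97 ± 0.27 log2 CPM in CD200-high libraries, 6.9999 ± 0.62 in type H, 10.01 ± 0.18 in arterial and 7.92 ± 0.37 in sinusoidal-labelled libraries (SD, n = 3 each). It was called in the 3 comparisons with arterial libraries, lower in type H than in sinusoidal-labelled libraries (limma adjusted p = 0.031), and higher in CD200-high libraries than in type H (limma adjusted p = 0.0438). Cybb, the catalytic subunit of the phagocyte oxidase, averaged 6.91 ± 0.63 in CD200-high libraries, 5.65 ± 0.37 in type H, 9.39 ± 0.37 in arterial and 6.87 ± 0.34 in sinusoidal-labelled libraries. Cd63, a membrane protein of granules and of lysosomes in many cells, was highest in CD200-high instead, at 11.36 ± 0.40, with 9.46 ± 0.21 in type H, 10.01 ± 0.10 in arterial and 8.46 ± 0.31 in sinusoidal-labelled libraries.

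Transcription factors of neutrophil differentiation were mixed. The 9 listed together took 0.0129% ± 0.00946 of the reads in CD200-high libraries, 0.0310% ± 0.00113 in type H, 0.0565% ± 0.00900 in arterial and 0.0666% ± 0.00661 in sinusoidal-labelled libraries (SD, n = 3 each). Myb, a transcription factor of progenitors, averaged 0.70 ± 2.85 log2 CPM in CD200-high libraries, 2.001 ± 0.81 in type H, 6.17 ± 0.43 in arterial and 7.64 ± 0.01 in sinusoidal-labelled libraries (SD, n = 3 each). Gfi1, a repressor needed for neutrophil differentiation, had 0 reads in all 6 CD200-high and type H libraries, 49 to 101 reads in arterial libraries and 86 to 217 in those labelled sinusoidal. In the comparison of arterial libraries with those labelled sinusoidal, neither Myb (limma adjusted p = 0.464) nor Gfi1 (0.941) was called. Cebpe, the factor needed for specific granules, had its highest level in arterial libraries, with 2.85 ± 0.80 in CD200-high libraries, 2.82 ± 0.53 in type H, 5.41 ± 0.39 in arterial and 3.42 ± 0.71 in sinusoidal-labelled libraries. Cebpe was called in all 3 comparisons with arterial libraries. Of the 9 neutrophil transcription factors listed, 5 were called lower in CD200-high than in arterial, 5 lower in type H than in arterial and 1, Cebpe, higher in arterial than in sinusoidal-labelled libraries on the deposited scale, beside 8.15%, 12.7% and 8.09% of all genes.

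Of 24 tested genes of late neutrophils and of their surface, 13 were called lower in CD200-high than in arterial, 15 lower in type H than in arterial and 9 higher in arterial than in sinusoidal-labelled libraries, on the deposited scale. Over all genes 8.15%, 12.7% and 8.09% were called in these directions. The median differences were -2.37, -2.51 and 1.90. Ly6g, the surface marker of mouse neutrophils, averaged 5.67 ± 0.37 log2 CPM in CD200-high libraries, 5.47 ± 0.98 in type H, 8.06 ± 0.55 in arterial and 6.15 ± 0.54 in sinusoidal-labelled libraries (SD, n = 3 each). Retnlg, a secreted protein of mature neutrophils, averaged 8.30 ± 0.61 in CD200-high libraries, 7.88 ± 0.57 in type H, 10.14 ± 0.52 in arterial and 8.24 ± 0.77 in sinusoidal-labelled libraries. Both were called in the 3 comparisons with arterial libraries and in no other. Between CD200-high and type H libraries, 1 of the 24 genes was called higher in CD200-high and 0 lower, against 6.66% and 6.35% of all genes. The gene called was Cxcr2, the chemokine receptor that draws neutrophils into blood. Cxcr2 averaged 5.89 ± 0.45 in CD200-high and 3.71 ± 1.05 in type H (limma adjusted p = 0.0155).

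Markers of other blood cells were present beside the granule genes, in other proportions. Ptprc averaged 5.38 ± 0.65 log2 CPM in CD200-high libraries, 3.98 ± 0.57 in type H, 7.41 ± 0.23 in arterial and 6.55 ± 0.31 in sinusoidal-labelled libraries (SD, n = 3 each). The 9 erythroid genes also took their highest share of reads in arterial libraries, with 0.271% ± 0.0755 in CD200-high libraries, 0.457% ± 0.176 in type H, 1.58% ± 0.587 in arterial and 0.477% ± 0.162 in sinusoidal-labelled libraries. The 9 B lineage genes took 0.0272% ± 0.00686 in CD200-high libraries, 0.0167% ± 0.00429 in type H, 0.304% ± 0.148 in arterial and 1.31% ± 0.0843 in sinusoidal-labelled libraries. Arterial libraries and those labelled sinusoidal did not overlap for either list, nor for the granule genes. Against the libraries labelled sinusoidal, arterial libraries had 0 of 9 B lineage genes called higher and 5 lower, and 4 of 9 erythroid genes called higher and 0 lower, the erythroid direction turning on the scale of equal pan-endothelial medians. Over all genes 8.09% were called higher in arterial and 365 of 17086 lower. The 7 megakaryocyte and platelet genes took 0.00450% ± 0.00292 in CD200-high libraries, 0.00550% ± 0.00168 in type H, 0.0886% ± 0.0541 in arterial and 0.334% ± 0.0463 in sinusoidal-labelled libraries.

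The 13 monocyte and macrophage genes took 0.0673% ± 0.0227 of the reads in CD200-high libraries, 0.216% ± 0.00890 in type H, 0.290% ± 0.0405 in arterial and 0.0702% ± 0.00987 in sinusoidal-labelled libraries (SD, n = 3 each), so type H ranked second for this list and last for the granule genes. Among its genes, Ly6c2 was highest in arterial libraries (10.05 ± 0.36 log2 CPM), whereas Mrc1 (8.71 ± 0.37) and Vcam1 (9.56 ± 0.28) were highest in type H. Vcam1 and Mrc1 are also made by endothelial cells. Genes of stroma and bone, 14 in all, summed to 11.1% ± 1.54 of CD200-high reads and 0.215% ± 0.135 of type H reads. For arterial and sinusoidal-labelled libraries the sums were 2.16% ± 0.357 and 1.23% ± 0.368 (SD, n = 3 each). These sums exceeded the pan-endothelial shares in every population except type H. The CD200-high pan-endothelial share was 0.473% ± 0.160. The part of any of these cells, blood or stromal, in the granule gene levels was not tested.

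**Figure D4:**
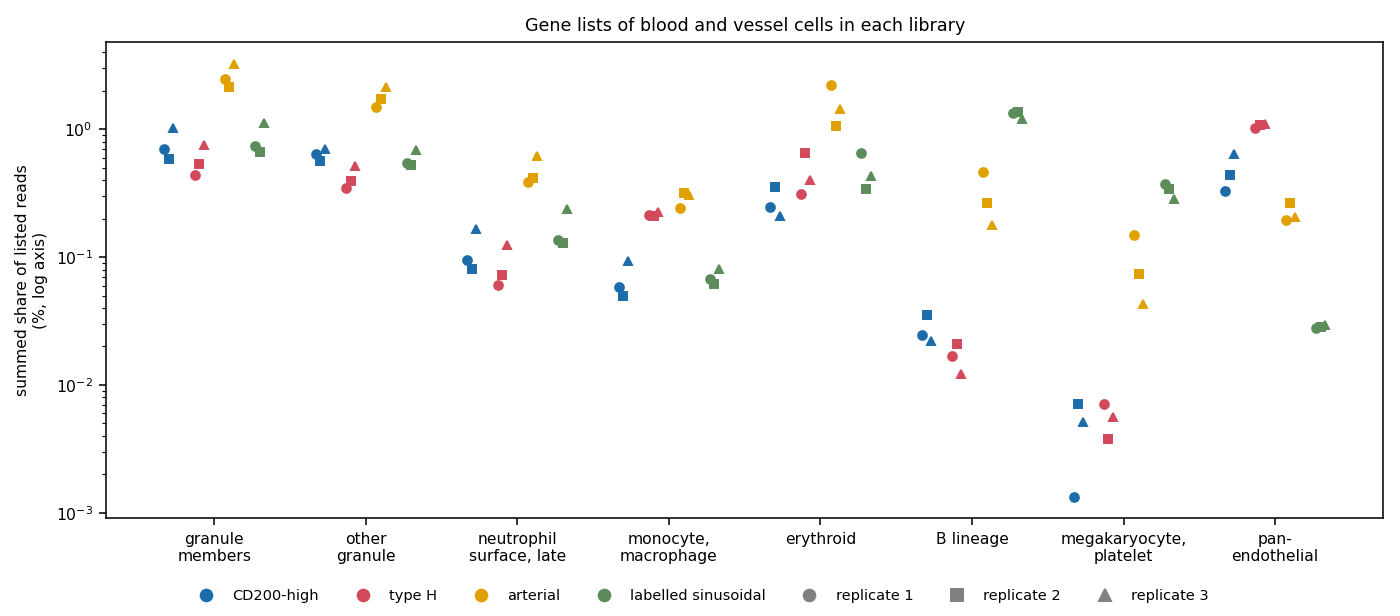
Summed share of reads of 8 gene lists in each library (y axis, percent, log axis), by list (x axis); colours mark populations and symbols replicates. The 10 granule genes, the further granule genes, the neutrophil surface and late genes and the erythroid genes are highest in arterial libraries, and the B lineage and platelet genes in the libraries labelled sinusoidal, which hold the lowest share of pan-endothelial genes.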

How the data were processed

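The authors deposited 1 table of log2 values for 17362 genes and 12 libraries, which match log2 CPM where 0.5 read had been added to each count and an effective size stood for the library total. Solving for the reads returned whole numbers, to within 0.01, in 100% of cells of the table. Per the submitters' processing notes, Trimmomatic, STAR, SAMtools, deepTools, featureCounts and R 4.3 were used; the build they name is human, so no coordinates were taken from it. Read length was 150 bases per the labels.

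Genes with at least 10 reads at the mean effective size of 15.9 M (M, 1e6 reads) (0.63 CPM) in at least 3 libraries were kept, which removed 276. limma 3.58.1 in R 4.3.3, with a mean-variance trend and 1 mean per population, was fitted to all 12 libraries and tested on simulated data. The design had foreseen normalized counts, and the log2 values were tested as they are. The 10 genes and all lists were chosen with earlier results of these data known. Named genes are the 10, the 3 of each list with the smallest adjusted p of the F test, defining markers and the most similar genes; some of these are not reported here. Replicate 1 of each population carries the same mouse number in the labels, and likewise 2 and 3. Deviations of same-numbered libraries from their population means correlated between -0.05 and 0.08 over 12183 genes, and none of 18 pairs exceeded 0.1. Still, 9 of the 12 libraries correlated best, on average, with the libraries of their own number in the other populations. Alternatives changed the filter, pseudocount, scaling, libraries fitted, trend, voom weights and block, and left out each library.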

Additional observations from a re-analysis of the deposited data

How the results depend on the processing

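The direction of the 10 granule genes against arterial libraries from CD200-high and type H held under every alternative. Equal pan-endothelial medians and the total of listed reads could not turn it, since each lowers the difference of every gene in these comparisons. With libraries set to equal pan-endothelial medians, the granule genes called numbered 6 for CD200-high against type H and 10 in each of the CD200-high against sinusoidal, type H against sinusoidal and other comparisons; all genes called numbered 2362 (CD200-high against type H), 5615 (CD200-high against arterial), 14850 (CD200-high against sinusoidal), 11171 (type H against arterial), 15651 (type H against sinusoidal) and 13108 (arterial against sinusoidal). That scale moved the median of all genes to 0.82, -1.46, -5.50, -2.30, -6.34 and -4.06 in the 6 comparisons, in the order CD200-high against type H, arterial and sinusoidal, type H against arterial and sinusoidal, and arterial against sinusoidal. Calls higher in the first population then made up 86.5%, 1.94%, 0.842%, 1.86%, 0.671% and 1.30%, against 51.2%, 36.8%, 49.1%, 38.5%, 48.8% and 79.1% on the deposited scale. On the total of listed reads they made up 42.9%, 24.6%, 35.5%, 35.8%, 41.2% and 69.1%.

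Arterial against sinusoidal turned on the pan-endothelial scale to -1.94 (Lcn2), -2.17 (Ngp), -2.19 (Camp), -2.12 (Ltf), -2.34 (S100a8), -2.33 (S100a9), -2.62 (Elane), -2.68 (Mpo), -2.60 (Prtn3) and -2.99 (Ctsg). CD200-high against sinusoidal turned there to -5.08 (Lcn2), -5.06 (Ngp), -5.21 (Camp), -5.01 (S100a8) and -4.99 (S100a9), and on the total of listed reads to -0.12 (Lcn2), -0.10 (Ngp), -0.25 (Camp), -0.041 (S100a8) and -0.023 (S100a9), where 1 granule gene was called. CD200-high against type H turned to 0.75 (Elane) and 0.71 (Prtn3) on the pan-endothelial scale, and for Mpo to -0.12 on listed reads and to -0.0045 with voom weights. With only the 6 libraries of the 2 populations, 1337 genes were called for CD200-high against type H and 2829 for arterial against sinusoidal. The causes were not tested.

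With each library left out, granule genes called ranged from 0 to 1 (CD200-high against type H), 6 to 10 (CD200-high against arterial), 7 to 9 (type H against arterial), 0 to 3 (type H against sinusoidal) and 6 to 8 (arterial against sinusoidal), and stayed at 0 for CD200-high against sinusoidal. All genes called ranged from 1689 to 2328, 1353 to 2458, 3499 to 5223, 2581 to 3726, 3836 to 5113 and 1019 to 1870 in the 6 comparisons. Without arterial replicate 1 or 3, CD200-high against arterial gave 1353 or 1397. Without arterial replicate 2 or 3 or sinusoidal replicate 2, arterial against sinusoidal gave 1082, 1019 or 1134. Differences near 0 also turned: CD200-high against type H ranged from -0.65 to 0.60 (Elane), -0.38 to 0.21 (Prtn3) and -0.16 to 0.27 (Mpo), CD200-high against sinusoidal from -0.12 to 0.30 (Camp) and -0.18 to 0.26 (Ltf), and type H against sinusoidal from -0.43 to 0.036 (S100a9).

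The replicate block, by mouse number, raised the granule genes called to 5 for CD200-high against type H and to 2 for type H against sinusoidal, and it changed no other call of these genes. Over single genes, 683 values with a library left out kept direction and side of the threshold, while 15 turned, 15 lost a call and 7 gained one. The 683 include fits that left out a library of neither compared population, where the difference could not change. Prtn3 and Ctsg in CD200-high libraries rested on 304 to 839 and 49 to 249 reads, which limits their precision.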
